A study of Mus musculus with 16 samples.

Results

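Hepatic stellate cells grown for 5 days beside Kupffer cells were set against quiescent stellate cells, over all genes of a mouse oligonucleotide array. The comparison held the 2 coculture arrays (replicates 2 and 3) and the 5 quiescent arrays (replicates 1 to 5), 7 of the 16 arrays in the series, and they were chosen by their titles. Cocultured cells spent 5 days in 10% fetal bovine serum, with hepatic macrophages on the other side of a transwell membrane, so that soluble factors could pass but the cells could not touch. Quiescent cells came from normal mice and were lysed after 24 h on the plate. A further group of 3 arrays, named culture here, spent 5 days in the same serum without macrophages, and it was used to test whether a value in coculture also differed from culture alone. All mice were male Balb/c of 8 to 10 weeks, and all preparations were purified by density centrifugation and then by removal of F4/80-positive cells, F4/80 being a surface antigen of macrophages. The other 6 arrays, 3 after 15 days of bile duct ligation and 3 after 4 injections of carbon tetrachloride (0.5 µl per g), entered only the estimate of the spread. The design text counts 3 cocultures, of which 1 was not analysed here. Coculture and quiescent cells also differed in their days on plastic, so an effect of the Kupffer cells cannot be told apart from an effect of time in serum within this contrast.

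Stellate cells lie in the space between hepatocytes and the sinusoidal endothelium, where they store vitamin A as retinyl esters. After injury, and also on stiff plastic, they lose these stores and become contractile myofibroblasts that secrete collagen. Kupffer cells are the resident macrophages of the liver, and they release interleukin 1, tumour necrosis factor and other mediators that act on stellate cells through NF-kB and AP-1, transcription factors of the inflammatory response. Matrix metalloproteinases, which cleave collagens and other matrix proteins, are known targets of AP-1.

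Values are log2 expression values per gene, on which a difference of 1 is a 2-fold difference and the background of the array lies near 2. The tested genes were the 7823 of 18193 that reached 5 on 2 arrays or more, and a gene was called when its adjusted p was under 0.05 (limma, moderated test of group means, Benjamini-Hochberg over the 7823 genes). Between 6824 and 7037 genes reached 5 on an array. Pearson correlations over the tested genes were 0.95 between the coculture arrays, 0.929 to 0.978 between pairs of quiescent arrays, 0.815 to 0.915 between coculture and culture arrays and 0.788 to 0.85 between coculture and quiescent arrays. Nothing in the labels ties a replicate number to its own mouse or isolation, so the p-values reflect the spread among these arrays alone, part of which may be technical. No detection calls were given, so where all arrays of a group lie near background a difference and its error describe the processed values, and the difference in RNA may be larger. RNA came from whole preparations, so a higher level per cell cannot be told apart from a larger share of cells that express a gene.

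The cocultured cells expressed the transcripts that mark stellate cells. Averaged over the 16 genes of the identity list, the coculture arrays stood at 8.97 and 9.90 and the quiescent arrays at 8.75 to 9.80. Of 15 tested members 3 were higher and 6 lower, against 17.8% and 20.9% of all tested genes. Vim (vimentin) read 12.23 and 12.79 in coculture and was called lower than in quiescent cells (-0.43, adjusted p = 0.0113). Without coculture replicate 2 its difference was -0.15. Markers of macrophages averaged 2.10 and 2.19 in coculture and 1.71 to 1.93 in quiescent cells over 25 genes, of which 3 were tested. Adgre1, which encodes F4/80, read 1.77 and 1.33 in coculture, against 1.73 to 2.14 in quiescent cells. Clec4f and Vsig4, which mark Kupffer cells, and Ptprc, the pan-leukocyte antigen CD45, lay between 0.92 and 1.76 on all coculture, culture and quiescent arrays. The macrophage markers called were Lyz1 and Lyz2, near-identical lysozyme genes whose probes cannot fully separate them. Lyz1 read 7.81 and 8.18 in coculture, 7.10, 7.02 and 7.98 in culture and 2.15, 2.41, 2.79, 2.96 and 2.14 in quiescent cells, and it was not called against culture (0.63 ± 0.55, adjusted p = 0.494). Cd68, a lysosomal membrane protein, read 7.81 and 7.82 in coculture, against 6.06 to 7.77 in quiescent cells and was not called (adjusted p = 0.294). It was 4.08 higher in coculture than in culture (adjusted p = 0.000547). Of 11 neutrophil markers 1 was tested, S100a8, and its usual partner S100a9 stayed at 1.37 and 1.22 in coculture. No lymphocyte marker was tested (array means 1.42 and 1.61 in coculture and 1.41 to 1.67 in quiescent cells). Krt19, a keratin of bile duct and mesothelial cells, was called, at 5.56 and 5.64 in coculture, against 1.11 to 1.93 in quiescent cells, whereas Krt8 and Krt18 read 2.24 and 2.05 and 2.19 and 2.06 in coculture and were not. Of the endothelial, hepatocyte, cholangiocyte and mesothelial markers 0 of 1, 1 of 4, 1 of 3 and 2 of 4 tested were called higher and 0 lower. The markers called higher in these lists, like Lyz1, Lyz2 and S100a8, passed the filter through arrays other than the quiescent ones. Means over these lists lay between 1.91 and 2.32 in coculture and between 1.54 and 2.13 in quiescent cells. The part of any other cell type in the results was not tested. The marker genes of this paragraph and the genes outside the lists' rule were chosen after their values were seen.

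Of the 7823 genes, 3031 were called (38.7%), 1396 higher (17.8%) and 1635 lower (20.9%) in coculture. The largest changes were increases. At a difference of 3 or more, 162 genes were higher and 24 lower, and at 5 or more 35 were higher and 5 lower, whereas between 1 and 2 there were 430 higher and 609 lower genes. Of the calls, 1470 (18.8%) were at least 2-fold, 756 higher (9.66%) and 714 lower (9.13%). The coculture and quiescent arrays did not overlap in 3633 genes (46.4%). The median difference over all tested genes was -0.04. Each coculture array weighed heavily: 1965 genes were called without coculture replicate 2 and 1816 without coculture replicate 3, with the remaining array assumed to vary like the other groups. Coculture against culture gave 1205 calls (15.4%), 655 higher (8.37%) and 550 lower (7.03%). Because the filter admits genes that pass through the coculture arrays alone, calls were also counted among the 7151 genes that reached 5 on at least 2 quiescent arrays, where 14.9% were higher and 22.6% lower. Counts of list members are affected in the same way, and where most increases came through other arrays the count among members that passed on quiescent arrays is given as well. Every count of called list members is to be read against 17.8% higher and 20.9% lower over all tested genes. In the test against culture the shares to read against are 8.37% higher and 7.03% lower.

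**Figure D1:**
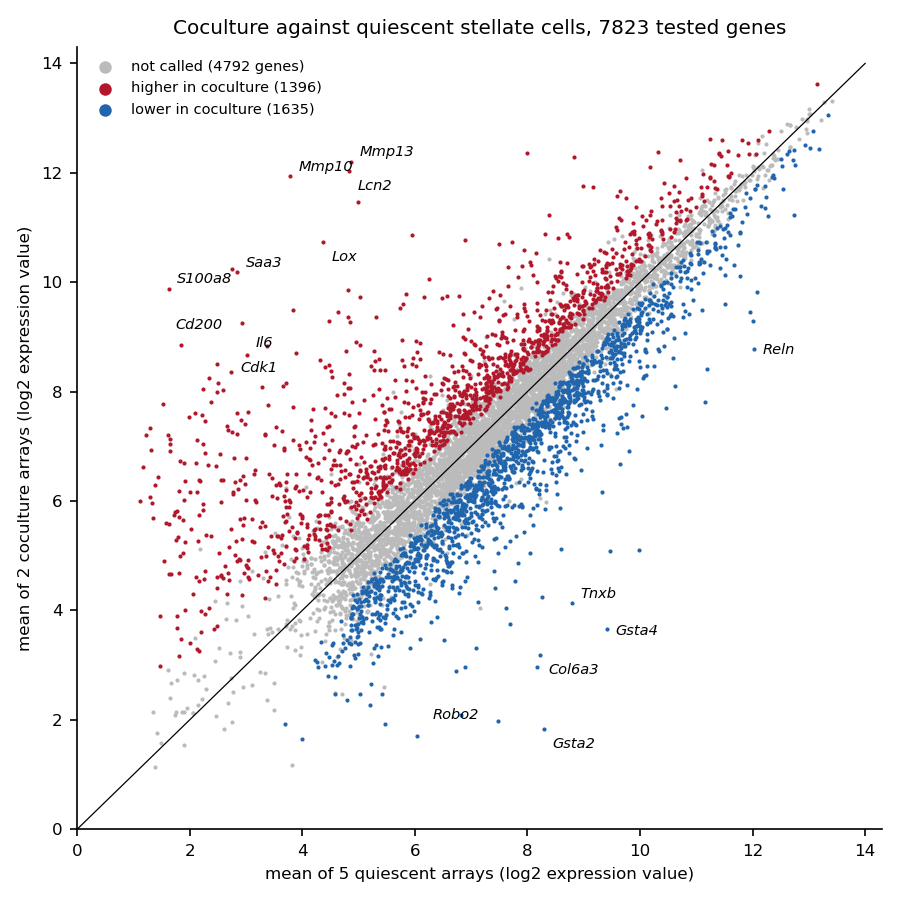
Mean log2 expression value of each of the 7823 tested genes in the 2 coculture arrays (vertical axis) against the 5 quiescent arrays (horizontal axis), coloured by whether it was called higher (1396), called lower (1635) or not called. Increases spread farthest from the diagonal, with S100a8, Mmp10, Saa3 and Mmp13 at the upper left, and Gsta2 and Gsta4 lie at the lower right.

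Genes of antimicrobial defence and the acute phase held several of the largest increases. Of 25 members on the array 8 were tested, of which 6 rose and 1 fell. Of the 4 that passed the filter on quiescent arrays, 3 were higher and 1 lower. S100a8, a calcium-binding protein abundant in neutrophils and activated macrophages, read 11.06 and 8.70 in coculture, 1.93, 1.99 and 1.38 in culture and 1.38, 1.52, 1.62, 1.92 and 1.67 in quiescent cells. The 2 coculture arrays differed by 2.36, yet both lay far above every culture and quiescent array, and the difference from quiescent cells was 8.26 ± 0.49 (adjusted p = 3.22e-08). Saa3, an acute phase serum amyloid made outside hepatocytes, read 9.21 and 11.15 in coculture, against 2.85, 2.96, 2.97, 3.12 and 2.29 in quiescent cells, a difference of 7.35 ± 0.73 (adjusted p = 3.92e-06). Lcn2, a lipocalin that starves bacteria of iron by binding their siderophores, read 12.23 and 11.84 in coculture, 3.09, 3.84 and 2.04 in culture and 3.82, 4.47, 5.07, 4.39 and 6.42 in quiescent cells. The coculture arrays stood apart from both other groups, by 7.20 ± 0.61 from quiescent cells (adjusted p = 1.34e-06) and by 9.04 ± 0.66 from culture (adjusted p = 1.06e-06).

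Ch25h, which hydroxylates cholesterol to an oxysterol that acts on immune cells, read 9.28 and 9.21 in coculture, against 1.79, 3.21, 2.08, 6.19 and 1.35 in quiescent cells. Cyp7b1, an oxysterol hydroxylase that acts on this product, read 8.56 and 10.44 in coculture, against 2.69 to 4.89 in quiescent cells and differed by 5.66 ± 0.75 (adjusted p = 4.81e-05). Both oxysterol enzymes were also above culture, by 6.51 and 3.40 (adjusted p = 0.000358 and 0.0107). Tfpi2, an inhibitor of serine proteases, rose by 4.82 ± 0.53, with 9.52 and 9.38 in coculture, against 3.56 to 5.51 in quiescent cells, and the copper-carrying plasma protein gene Cp (ceruloplasmin) rose by 3.22 ± 0.29. The member that fell was Steap4, a metalloreductase, by 2.13 ± 0.49 (-1.12 and not called without coculture replicate 2). Of the 7 members called against culture, 6 were higher in coculture.

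**Figure D2:**
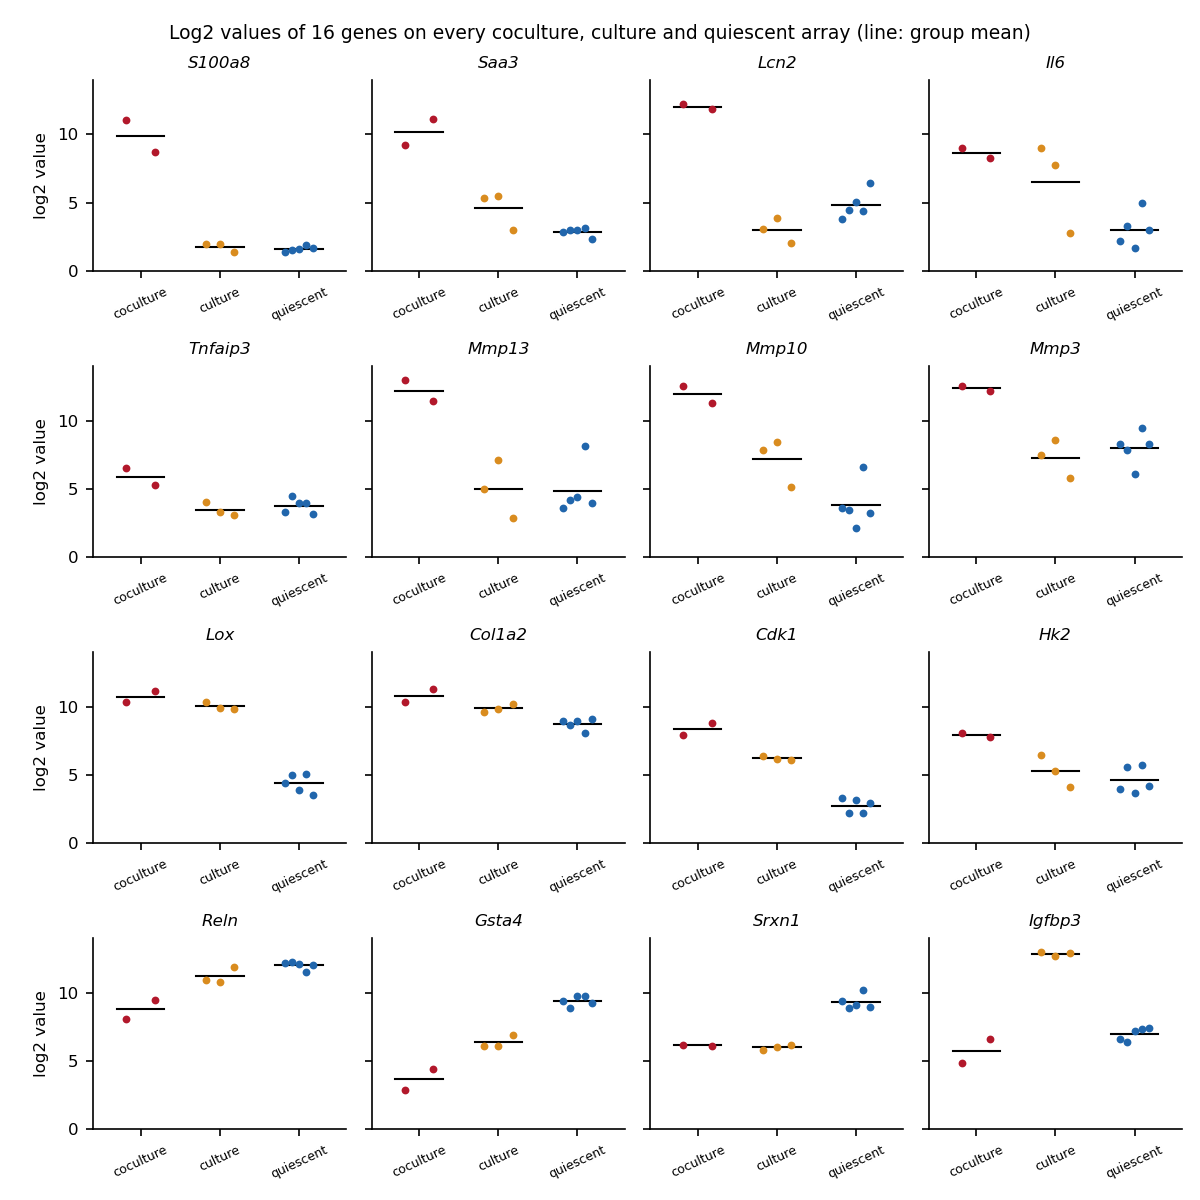
Log2 expression values of 16 genes on each coculture (2 arrays), culture (3) and quiescent (5) array, with lines at the group means. S100a8, Saa3, Lcn2 and Mmp13 are highest on the coculture arrays, Lox and Srxn1 have close values in coculture and culture, and Igfbp3 is highest in culture.

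Secreted cytokines and chemokines were raised in part. Il6, the cytokine that drives the hepatic acute phase response, read 9.03 and 8.29 in coculture, 9.04, 7.77 and 2.79 in culture and 2.18, 3.28, 1.67, 4.95 and 2.98 in quiescent cells. Every quiescent array lay at or below 4.95 and the difference from quiescent cells was 5.65 ± 1.20 (adjusted p = 0.00201), but culture replicate 3 lay in the quiescent range, and coculture was not called against culture (2.13 ± 1.31, 95% interval -0.66 to 4.91, adjusted p = 0.308). Of 9 tested CXC chemokines 5 rose and 0 fell, or 3 rose without coculture replicate 2. Of the 6 that passed the filter on quiescent arrays, 3 were higher and 0 lower. Cxcl14 read 9.88 and 8.70 in coculture, against 5.60, 5.19, 1.60, 6.28 and 3.70 in quiescent cells and differed by 4.82 ± 1.0 (adjusted p = 0.00171). Its quiescent values were themselves widely spread, over more than 4 log2 units. Pf4, platelet factor 4, read 7.33 and 7.21 in coculture, against 5.55, 5.16, 6.05, 6.03 and 5.60 in quiescent cells, a difference of 1.59 ± 0.33 (adjusted p = 0.00166). Against culture, 6 CXC chemokines were called and all 6 were higher in coculture. Cxcl1, a neutrophil chemoattractant, was among them (2.92 ± 0.62, adjusted p = 0.00503), although its coculture values of 10.55 and 8.72 overlapped the quiescent values of 7.63 to 9.69. Against quiescent cells Cxcl1 was not called (1.12, adjusted p = 0.132), but was without quiescent replicate 4 (1.41) or coculture replicate 3 (2.03). Among 3 tested CC chemokines 2 rose, or 1 without coculture replicate 2. Ccl2, the main monocyte chemoattractant of the liver, read 11.06 and 10.12 in coculture, against 7.25, 7.24, 8.79, 8.85 and 7.52 in quiescent cells, a difference of 2.66 ± 0.51 (adjusted p = 0.000959). The list of the IL-6 family and myeloid growth factors had 1 member higher, Il6, and 2 lower of 11 tested. Without quiescent replicate 4 there were 2 higher, without quiescent replicate 2 or 5 or culture replicate 2 there was 1 lower, and without coculture replicate 2 there were 0 lower. Of the 9 members of the IL-6 list that passed the filter on quiescent arrays, 0 were higher and 2 lower. Il1b and Tnf themselves were not tested, at 1.79 and 2.09 and at 2.05 and 2.09 in coculture.

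Genes of NF-kB signalling moved in both directions. Of the tested list 18.8% were higher, against 17.8% of all tested genes, and 31.2% lower, against 20.9%. Tnfaip3, which encodes the ubiquitin-editing enzyme A20 that ends NF-kB signalling, read 6.52 and 5.27 in coculture, against 3.28, 4.47, 3.95, 3.93 and 3.15 in quiescent cells. It was above all quiescent arrays in both cocultures, by 2.14 ± 0.43 (adjusted p = 0.00136), and above culture by 2.45 ± 0.47 (adjusted p = 0.00277). Tnip1, which binds A20, rose by 1.57 ± 0.30, with 8.72 and 8.94 in coculture, against 6.56 to 7.84 in quiescent cells. Nfkbia, the inhibitor IκBα and a classical NF-kB target, was high in both groups, with 11.13 and 10.82 in coculture, against 10.51, 10.91, 11.20, 10.75 and 11.09 in quiescent cells, and was not called (0.08 ± 0.18, adjusted p = 0.766). Of 16 tested subunits and feedback genes 3 rose and 5 fell, and the number lower was 3 without quiescent replicate 2, quiescent replicate 4 or culture replicate 2 and 1 without coculture replicate 3, while the number higher was 2 without either coculture array. The NF-kB subunit gene Rela was among the lower ones (-1.01), but it was not called without coculture replicate 3 (-0.88).

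Receptors for the macrophage cytokines were not uniformly raised. Of 14 tested genes of interleukin 1 and tumour necrosis factor signalling, 4 rose and 4 fell, with 1 higher without coculture replicate 2 and 2 higher without coculture replicate 3. Of the 10 that passed the filter on quiescent arrays, 1 was higher and 4 were lower. Il1r1, the signalling receptor of interleukin 1, read 6.77 and 8.25 in coculture, against 9.43, 9.88, 9.33, 9.65 and 9.88 in quiescent cells. It was lower in both cocultures, by 2.13 ± 0.34 on average (adjusted p = 0.000253), or by 1.39 without coculture replicate 2. Il1rap, the co-receptor needed for signalling by Il1r1, moved the other way, with 8.34 and 8.23 in coculture, against 5.86 to 6.40 in quiescent cells, a difference of 2.10 ± 0.34 (adjusted p = 0.000236). Tnfrsf1a, the main receptor for tumour necrosis factor, fell by 1.09 ± 0.26, with 8.24 and 8.43 in coculture, against 9.21 to 9.78 in quiescent cells. It was -0.02 from culture (95% interval -0.62 to 0.59). Cd40, a receptor for T cell help, read 6.67 and 5.28 in coculture, against 3.71, 3.61, 3.62, 4.52 and 3.44 in quiescent cells, and it was higher than in quiescent cells (2.20 ± 0.38, adjusted p = 0.000437) and than in culture (2.12 ± 0.41, adjusted p = 0.00308). Tnfsf9, the ligand 4-1BBL, rose by 1.82 ± 0.37. Il33, an alarmin of the interleukin 1 family, overlapped between the groups, with 5.31 and 6.69 in coculture, against 8.82, 8.32, 5.50, 8.37 and 7.33 in quiescent cells, and was not called (-1.67 ± 0.73, adjusted p = 0.0819), but was called without quiescent replicate 3 (-2.21).

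Many interferon-stimulated genes were higher in coculture than in quiescent cells, and none was called against culture. Of 28 tested members 13 rose (46.4%, against 17.8% of all tested genes) and 0 fell (against 20.9%). The median was 1.60 over the members tested (-0.04 over all genes). The count was 8 without quiescent replicate 1, 20 without culture replicate 3, 4 without coculture replicate 2 and 7 without coculture replicate 3. Median levels of the list were 9.68 and 9.09 on the coculture arrays, 9.50, 9.93 and 6.87 on the culture arrays and 7.39, 6.95, 8.01, 7.31 and 8.89 on the quiescent arrays, so quiescent replicate 5 came close to coculture. Ifi47, an interferon-induced GTPase, read 9.40 and 9.64 in coculture, against 4.92, 5.87, 6.28, 4.69 and 6.91 in quiescent cells, a difference of 3.79 ± 0.55 (adjusted p = 0.000118). Irgm1, a GTPase of the same family that acts in defence against intracellular bacteria, rose by 2.62 ± 0.47, with 10.55 and 10.02 in coculture, against 6.95 to 8.40 in quiescent cells. Oasl1 rose by 2.87 ± 0.72, with 7.11 and 4.94 in coculture, against 2.32 to 3.79 in quiescent cells. In the test against culture 0 of 28 members were called (limma), with 3 at an unadjusted p under 0.05, and over all genes that test called 15.4%.

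Complement genes rose without exception among those called, 6 of 10 tested, although 3 of the 6 called against culture were lower in coculture. Cfb, the protease of the alternative pathway, read 8.37 and 8.39 in coculture, 3.78, 4.72 and 2.47 in culture and 4.38, 5.04, 3.93, 3.83 and 5.35 in quiescent cells. Among these groups coculture alone was high, by 3.87 ± 0.52 over quiescent cells (adjusted p = 5.48e-05) and 4.72 ± 0.56 over culture (adjusted p = 8.22e-05). C2, the corresponding protease of the classical pathway, read 8.65 and 8.84 in coculture, 8.45, 9.05 and 8.50 in culture and 5.47, 5.98, 5.10, 3.67 and 6.18 in quiescent cells. Coculture was not called against culture (0.08 ± 0.56, 95% interval -1.11 to 1.26), and it lay 3.46 ± 0.51 above quiescent cells (adjusted p = 0.000128). Serping1, the inhibitor of the proteases that start the classical pathway, rose by 1.92 ± 0.26, with 11.97 and 12.25 in coculture, against 9.39 to 10.62 in quiescent cells, and Cd59a, which blocks the membrane attack complex, by 3.35 ± 0.39, with 6.07 and 6.17 in coculture, against 2.07 to 3.26 in quiescent cells. Without coculture replicate 3 the count was 4 higher and 2 lower. In the MHC class I list, 2 of 12 members were higher, close to the share over all genes, and 1 without coculture replicate 3. Tapbp, which loads peptides onto class I molecules, was 1.25 ± 0.27 higher.

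Among adhesion and immune contact molecules 6 of 15 rose and 0 fell (1 fell without coculture replicate 2). Of the 11 that passed the filter on quiescent arrays, 3 were higher and 0 lower. Cd200, a membrane glycoprotein that restrains macrophages through their receptor Cd200r1, read 8.94 and 8.77 in coculture, 6.96, 6.97 and 6.63 in culture and 1.21, 1.88, 2.16, 2.15 and 1.78 in quiescent cells. All quiescent arrays were at background, and the difference of 7.02 (adjusted p = 1.62e-09) describes the processed values. Coculture exceeded culture by 2.0 ± 0.33 (adjusted p = 0.000857). Cd274, the checkpoint ligand PD-L1, rose by 2.18 ± 0.62, with 5.58 and 4.04 in coculture, against 2.12 to 3.21 in quiescent cells (1.58 and not called after quantile normalisation). Lgals3, a galactose-binding lectin, rose by 1.60 ± 0.28, with 10.47 and 9.92 in coculture, against 8.16 to 8.99 in quiescent cells. Icam1 and Vcam1, the adhesion molecules for leukocytes, were not called, at 0.10 and 0.30 (adjusted p = 0.875 and 0.338). Cd200, Fmo2 and S100a8 were the 3 genes with every quiescent array under 3 and both coculture arrays at 8 or more, and 0 genes showed the reverse pattern. Fmo2, a flavin monooxygenase, read 8.16 and 8.16 in coculture, 3.05, 2.73 and 2.71 in culture and 2.18, 2.34, 2.78, 2.64 and 2.55 in quiescent cells.

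Prostaglandin genes changed at several steps. Pla2g4a, the cytosolic phospholipase that releases arachidonic acid, read 8.59 and 8.54 in coculture, against 5.63, 5.02, 6.08, 4.83 and 4.93 in quiescent cells, a difference of 3.27 ± 0.33 (adjusted p = 3.92e-06), and stood 1.79 ± 0.36 above culture (adjusted p = 0.00352). Ptgs2, the inducible cyclooxygenase, read 9.53 and 6.62 in coculture, against 2.45, 2.71, 1.58, 7.67 and 2.03 in quiescent cells. Quiescent replicate 4 lay between the coculture arrays, so the groups overlapped, although the mean difference of 4.79 ± 1.33 was called (adjusted p = 0.0108). Without coculture replicate 2 it was 3.33 and not called. Ptgis, which makes prostacyclin, fell by 2.05 ± 0.26, with 6.95 and 7.64 in coculture, against 9.05 to 9.88 in quiescent cells. In all, 4 of 7 tested members were higher and 1 lower, and 2 were higher without quiescent replicate 1, 2 or 3 or without either coculture array.

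Inducible metalloproteinases that cleave collagen and proteoglycans were among the most changed genes. The list also holds genes of plasminogen activation, and of its 8 tested members 4 rose (Mmp13, Mmp10, Mmp3 and Serpinb2) and 0 fell. Of the 5 that passed the filter on quiescent arrays, 2 were higher and 0 lower. Mmp13, the interstitial collagenase of the mouse, read 13.0 and 11.41 in coculture, 5.0, 7.11 and 2.85 in culture and 3.61, 4.18, 4.38, 8.16 and 3.97 in quiescent cells. Both cocultures were above every culture and quiescent array, and the difference was 7.34 ± 1.09 from quiescent cells (adjusted p = 0.000136) and 7.22 ± 1.19 from culture (adjusted p = 0.000934). Quiescent replicate 4 stood apart from the other quiescent arrays, which lay between 3.61 and 4.38. Mmp10, a stromelysin that cleaves proteoglycans and activates collagenases, read 12.56 and 11.31 in coculture, 7.86, 8.45 and 5.16 in culture and 3.57, 3.47, 2.11, 6.57 and 3.22 in quiescent cells. It was highest in coculture and intermediate in culture, with a difference of 8.15 ± 0.94 from quiescent cells (adjusted p = 1.48e-05) and of 4.78 ± 1.03 from culture (adjusted p = 0.00553). Mmp3, the other stromelysin, was already expressed in quiescent cells, with 12.56 and 12.17 in coculture, against 8.27, 7.83, 6.07, 9.44 and 8.31 in quiescent cells, and rose by 4.38 ± 0.71 (adjusted p = 0.000275). Serpinb2, an inhibitor of plasminogen activators, read 11.19 and 10.35 in coculture, 1.78, 2.63 and 1.41 in culture and 7.13, 7.13, 6.0, 9.39 and 4.78 in quiescent cells. It was lowest in culture, so that coculture lay 3.88 ± 0.82 above quiescent cells and 8.83 ± 0.89 above culture (adjusted p = 0.00193 and 2.27e-05). Mmp8, the neutrophil collagenase, passed 5 on 1 array alone and was not tested, at 6.29 and 3.66 in coculture, against 1.34 to 1.82 in quiescent cells. Mmp9 stayed at background, at 1.84 and 1.76 in coculture.

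The promoters of Mmp13, Mmp10 and Mmp3 are shown because these genes lie near each other on chromosome 9, rose together, and belong to a family known for AP-1 control. Each sequence is the 250 bases before the annotated start, 5′ to 3′ in the direction of transcription (RefSeq, GRCm38.p6), and capitals mark matches to TGANTCA, the AP-1 motif, searched on both strands.
Mmp13, chr9:7272264-7272513, plus strand: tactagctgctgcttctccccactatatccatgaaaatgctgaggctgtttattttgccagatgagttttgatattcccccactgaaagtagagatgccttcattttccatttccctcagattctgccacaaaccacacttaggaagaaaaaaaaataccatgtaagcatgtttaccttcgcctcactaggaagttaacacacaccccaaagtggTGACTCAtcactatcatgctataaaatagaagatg
Mmp10, chr9:7502092-7502341, plus strand: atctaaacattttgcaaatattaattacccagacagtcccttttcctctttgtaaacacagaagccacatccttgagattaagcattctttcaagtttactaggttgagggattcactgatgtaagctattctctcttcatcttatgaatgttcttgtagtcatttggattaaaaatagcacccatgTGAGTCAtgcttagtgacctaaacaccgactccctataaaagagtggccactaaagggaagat
Mmp3, chr9:7445572-7445821, plus strand: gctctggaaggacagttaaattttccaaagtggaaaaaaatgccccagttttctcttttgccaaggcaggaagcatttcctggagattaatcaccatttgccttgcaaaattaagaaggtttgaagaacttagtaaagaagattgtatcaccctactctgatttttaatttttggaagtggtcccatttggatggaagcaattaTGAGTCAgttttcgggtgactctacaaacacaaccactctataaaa
Each promoter held 1 match, 35 to 29 bases before the start in Mmp13, 63 to 57 in Mmp10 and 46 to 40 in Mmp3. In windows of 300 bases (250 before to 50 after the start), TGANTCA occurred in 21 of 123 promoters of genes higher by 3 or more (17.1%), in 7.43% of all 1130 genes called higher that had a promoter, in 5.14% of 1361 called lower and in 5.91% of all 6416 tested genes with a promoter. The other motifs searched also differed in share. A permissive NF-kB pattern, 3 G, any 5 bases and 2 C, occurred in 60.2% of the promoters of genes higher by 3 or more, in 69.3% of those of higher genes, in 77.9% of those of lower genes and in 73.2% of all. TTTGAA and CCAAT, described with the cell cycle genes, occurred in 24.4% and 56.1% of the promoters of genes higher by 3 or more and in 13.5% and 42.2% of all. These shares describe letters in the sequence, and no binding was measured.

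Other proteases and their inhibitors were called in both directions. The share higher was 41.2%, against 17.8% of all tested genes, and the share lower, 23.5%, was near the 20.9% of all. Of 17 tested constitutive metalloproteinases and inhibitors 7 rose and 4 fell, with 4 higher without coculture replicate 3 and 2 lower without coculture replicate 2. Timp3, the inhibitor that stays bound to matrix, read 8.74 and 9.85 in coculture, against 12.24, 12.18, 12.07, 11.95 and 11.57 in quiescent cells. Both cocultures were below all quiescent arrays, by 2.71 ± 0.28 (adjusted p = 5e-06). Adamts5, which cleaves aggrecan-type proteoglycans, read 7.35 and 7.39 in coculture, 9.98, 9.78 and 10.12 in culture and 5.15, 5.09, 5.01, 3.71 and 5.69 in quiescent cells, intermediate between culture and quiescent cells, with differences of 2.44 ± 0.39 from quiescent cells and -2.59 ± 0.43 from culture (adjusted p = 0.00025 and 0.000944). Adamts12 rose by 1.69 ± 0.31. Timp1, the soluble inhibitor linked to fibrosis, read 11.05 and 10.58 in coculture, against 7.48 to 9.62 in quiescent cells and was 2.28 ± 0.72 higher (adjusted p = 0.0214), a call lost without coculture replicate 2 (2.04) or 3 (2.51).

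Fibrillar collagens rose in part. Col1a2, a chain of type I collagen, read 10.33 and 11.31 in coculture, against 8.92, 8.67, 8.95, 8.07 and 9.12 in quiescent cells, a difference of 2.07 ± 0.29 (adjusted p = 7.63e-05) that was not called against culture (0.95 ± 0.31, adjusted p = 0.0531). Col5a2 rose by 1.36 ± 0.14, with 12.59 and 12.63 in coculture, against 10.97 to 11.39 in quiescent cells. Col1a1, the other chain of type I collagen, read 8.79 and 10.17 in coculture, against 9.0, 7.92, 8.17, 6.71 and 8.01 in quiescent cells. The groups overlapped, and the call (1.52 ± 0.44, adjusted p = 0.0128) was lost without coculture replicate 3 (0.83). Col3a1 read 11.12 and 12.98 in coculture, against 11.82, 12.08, 10.78, 9.34 and 11.49 in quiescent cells and was not called (0.95, adjusted p = 0.195), but was without coculture replicate 2 (1.88). In all 3 of 6 tested fibrillar collagens were higher and 1 lower, and 0 were lower without coculture replicate 2. Against culture 0 were called (limma), with 1 at an unadjusted p under 0.05.

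Lox, the copper enzyme that cross-links collagen, was the largest change among collagen-processing genes. It read 10.32 and 11.14 in coculture, 10.32, 9.92 and 9.85 in culture and 4.40, 4.98, 3.87, 5.05 and 3.53 in quiescent cells. Coculture was not called against culture (0.70 ± 0.38, 95% interval -0.11 to 1.51) and exceeded quiescent cells by 6.36 ± 0.35 (adjusted p = 1.98e-08). P4ha2, a prolyl hydroxylase of collagen, rose by 1.83 ± 0.23, with 8.51 and 8.89 in coculture, against 6.55 to 7.30 in quiescent cells. Of 20 tested processing genes 7 rose and 4 fell (4 and 4 of the 16 that passed on quiescent arrays), with 4 higher and 1 lower without coculture replicate 2, 5 higher and 2 lower without coculture replicate 3.

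Basement membrane components were more often lower than higher, 5 of 11 tested against 2 higher, with 3 lower without coculture replicate 3. The share lower was 45.5%, against 20.9% of all tested genes, and the share higher, 18.2%, was near the 17.8% of all. The laminin chains Lamc1 and Lamb2 fell by 1.70 ± 0.26 and fell by 1.37 ± 0.27. Lamc1 read 7.06 and 6.98 in coculture, against 8.98, 9.10, 8.57, 8.30 and 8.70 in quiescent cells. The exceptions were large increases over low quiescent levels. Col4a5, a chain of type IV collagen, read 6.12 and 7.13 in coculture, 7.56, 7.58 and 7.56 in culture and 1.42, 1.17, 1.32, 0.84 and 1.07 in quiescent cells, and Nid2, which links laminin to collagen IV, read 11.26 and 10.45 in coculture, against 5.44 to 6.67 in quiescent cells. They rose by 5.46 ± 0.30 and by 4.91 ± 0.51 (adjusted p = 1.98e-08 and 5.82e-06), and neither was called against culture (-0.94 and 1.0, adjusted p = 0.0667 and 0.253). Among 7 other collagens 2 were higher and 2 lower (1 higher and 5 lower without coculture replicate 3, and 1 lower without quiescent replicate 1 or 5 or coculture replicate 2). Each direction held 28.6% of these 7 collagens, against 17.8% higher and 20.9% lower over all tested genes. Col6a3, a chain of the filament collagen VI, read 2.47 and 3.91 in coculture, against 9.34, 8.62, 8.10, 7.07 and 8.0 in quiescent cells and fell by 5.03 ± 0.49 (adjusted p = 2.96e-06), whereas Col12a1 rose by 2.65 ± 0.57, with 7.0 and 7.10 in coculture, against 3.52 to 5.19 in quiescent cells.

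Proteoglycan and matricellular genes included large changes in both directions. As a list they were near the shares over all tested genes, with 6 of 28 higher (21.4%, against 17.8%) and 5 lower (17.9%, against 20.9%). Ogn, a small leucine-rich proteoglycan, read 7.47 and 9.52 in coculture, 9.37, 9.14 and 11.75 in culture and 2.20, 2.84, 2.63, 2.19 and 2.52 in quiescent cells, and it rose by 6.02 ± 0.60 over quiescent cells (adjusted p = 3.91e-06). Fbln2, an elastic fibre protein that also marks portal fibroblasts, read 6.54 and 7.17 in coculture, 2.68, 3.14 and 1.24 in culture and 3.20, 2.27, 2.11, 3.07 and 2.04 in quiescent cells. Among these groups it was high in coculture alone, by 4.32 ± 0.47 over quiescent cells and 4.50 ± 0.51 over culture (adjusted p = 8.74e-06 and 5.95e-05). Tnxb, tenascin X, read 3.59 and 4.67 in coculture, against 9.34, 9.07, 7.97, 8.66 and 8.93 in quiescent cells, a fall of 4.66 with adjusted p = 6.54e-05. Abi3bp, a matrix protein, read 2.90 and 3.01 in coculture, against 8.18, 7.94, 8.31, 7.91 and 8.53 in quiescent cells and fell by 5.22 ± 0.77 (adjusted p = 0.000126). Against culture 11 members of this list were lower in coculture and 3 higher. Ltbp4, which anchors latent TGF-beta in the matrix, fell by 3.95 ± 0.44, with 3.92 and 3.58 in coculture, against 7.40 to 7.92 in quiescent cells. Of 9 tested integrins 3 were higher and 1 lower, with 2 higher and 0 lower without coculture replicate 2. Itgb5, whose protein binds vitronectin and can activate latent TGF-beta, rose by 1.60 ± 0.31, with 9.70 and 10.70 in coculture, against 7.90 to 8.97 in quiescent cells.

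Transcripts of the quiescent stellate cell were reduced in part. Of 24 tested genes of quiescence and retinoid handling 11 fell, against 20.9% of all tested genes, and 3 rose, with 6 lower without coculture replicate 2. Reln, the secreted glycoprotein reelin that marks stellate cells in the liver, read 8.10 and 9.46 in coculture, 10.97, 10.83 and 11.93 in culture and 12.16, 12.26, 12.14, 11.52 and 12.07 in quiescent cells. The cocultures lay below all culture and quiescent arrays, by 3.25 ± 0.36 from quiescent cells (adjusted p = 9.93e-06) and by 2.46 from culture (adjusted p = 0.000684). Vipr1, a receptor for vasoactive intestinal peptide, fell by 2.94 ± 0.48, with 2.14 and 2.80 in coculture, against 4.47 to 6.07 in quiescent cells. Pth1r, the parathyroid hormone receptor, and Gata4, a transcription factor known in mice to restrain stellate cell activation, fell by 2.38 ± 0.30 and fell by 2.43 ± 0.35. The retinoid genes that rose were Rarb, a retinoic acid receptor (2.98 ± 0.42), Dhrs3, which reduces retinal to retinol (3.24 ± 0.59), and the retinoid-responsive chemokine-like gene Rarres2 (3.45 ± 0.40). Rarb read 9.84 and 9.67 in coculture, against 6.92, 7.36, 6.35, 5.88 and 7.39 in quiescent cells. Lrat, which makes the stored retinyl esters, overlapped between groups, with 6.44 and 9.53 in coculture, against 5.63, 6.70, 6.02, 3.22 and 6.50 in quiescent cells, and was not called (2.37 ± 1.19, adjusted p = 0.128). Hgf, hepatocyte growth factor, was not called either (0.93 ± 0.42, adjusted p = 0.0911), with 9.22 and 9.63 in coculture, against 7.91 to 9.04 in quiescent cells. Des, desmin, read 8.06 and 7.61 in coculture, against 7.98 to 8.82 in quiescent cells and was not called (-0.70, adjusted p = 0.0932), but was without quiescent replicate 4 (-0.84).

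Contractile genes were called in shares near those of all tested genes, with 6 of 25 higher (24.0%, against 17.8%) and 5 lower (against 20.9%). Without coculture replicate 2 there were 2 higher, without coculture replicate 3 there were 2 lower, and without quiescent replicate 2 there were 3 lower. Cnn1, calponin, and Actg2, smooth muscle gamma actin, rose over low quiescent levels. Cnn1 read 5.53 and 4.28 in coculture, against 1.54, 1.80, 0.91, 1.72 and 1.72 in quiescent cells and rose by 3.37 ± 0.56 (adjusted p = 0.000335), and Actg2 read 6.65 and 6.03 in coculture, against 3.09 to 4.27 in quiescent cells and rose by 2.63 ± 0.45. Acta2, the alpha smooth muscle actin used to define myofibroblasts, was already high in quiescent cells, with 12.63 and 12.18 in coculture, against 11.20, 11.56, 12.0, 11.20 and 11.82 in quiescent cells. It was 0.85 ± 0.21 higher (adjusted p = 0.00618), a call lost without coculture replicate 2 (0.62) and with the mean of all its probe sets (0.18). Flna, the actin cross-linker filamin A, fell by 1.66 ± 0.18, with 10.27 and 9.95 in coculture, against 11.67 to 11.84 in quiescent cells (adjusted p = 9.93e-06).

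Growth factor pathways of fibrosis held calls in both directions, to be read against 17.8% higher and 20.9% lower over all tested genes. Of 22 tested genes of PDGF and TGF-beta signalling 2 rose and 5 fell, with 1 higher and 1 lower without coculture replicate 2 and 3 lower without coculture replicate 3. Pdgfd, a ligand of the PDGF receptor beta, read 4.63 and 6.87 in coculture, 7.11, 7.08 and 7.39 in culture and 1.81, 2.41, 2.20, 2.06 and 2.37 in quiescent cells. It rose by 3.58 ± 0.43 over quiescent cells (adjusted p = 2.31e-05) and was -1.45 ± 0.47 against culture (adjusted p = 0.0491). Its receptor gene Pdgfrb read 10.50 and 10.64 in coculture, against 10.86 to 11.58 in quiescent cells and was -0.66 ± 0.20 (adjusted p = 0.0157), a call lost without coculture replicate 2 (-0.59) or 3 (-0.73). Tgfbr3, the co-receptor betaglycan, fell by 1.63 ± 0.32, with 8.62 and 9.35 in coculture, against 10.11 to 11.02 in quiescent cells. Among 17 BMP and GDF genes 5 fell and 1 rose, with 2 lower without coculture replicate 2 and 2 higher when quiescent replicate 2, quiescent replicate 5, culture replicate 1 or culture replicate 3 was left out. Of the 16 BMP and GDF genes that passed the filter on quiescent arrays, 0 were higher and 5 lower. Bmp5 fell by 1.78 ± 0.31, with 8.01 and 8.92 in coculture, against 9.86 to 10.43 in quiescent cells. Of 8 tested genes of the insulin-like growth factor axis 1 was higher and 3 lower, with 0 higher and 1 lower without coculture replicate 2. Igf1r, the receptor, fell by 1.34 ± 0.26, with 7.67 and 6.96 in coculture, against 8.45 to 8.85 in quiescent cells. Igfbp3, a carrier of these growth factors, read 4.83 and 6.62 in coculture, 12.98, 12.74 and 12.93 in culture and 6.62, 6.42, 7.20, 7.31 and 7.40 in quiescent cells. The call against quiescent cells (-1.26 ± 0.36, adjusted p = 0.0121) was lost without coculture replicate 2 (-0.37) and was -2.16 without coculture replicate 3, whereas coculture lay 7.16 below culture (adjusted p = 6.53e-08), with no overlap of the arrays.

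Angiogenic factors and epithelial growth factors rose in 9 of 20 tested genes and fell in 3, with 5 higher and 1 lower without coculture replicate 2 and 2 lower without coculture replicate 3. Over all tested genes 17.8% were higher and 20.9% lower. Of the 11 members that passed the filter on quiescent arrays, 3 were higher and 3 lower, against 14.9% and 22.6% of all genes so selected. Angptl4, which inhibits lipoprotein lipase, read 10.22 and 8.52 in coculture, 5.14, 5.03 and 4.06 in culture and 5.27, 4.21, 4.89, 5.01 and 4.67 in quiescent cells. Among these groups it was high in coculture alone, by 4.56 ± 0.44 over quiescent cells (adjusted p = 2.73e-06) and 4.62 ± 0.48 over culture (adjusted p = 2.73e-05). Vegfa, the main endothelial growth factor, read 6.87 and 7.71 in coculture, against 3.23, 4.0, 3.92, 6.12 and 3.52 in quiescent cells and rose by 3.14 ± 0.57 (adjusted p = 0.000631). Quiescent replicate 4 was the highest of the quiescent arrays and still below both cocultures. Angpt2, which antagonises angiopoietin 1 at the Tek receptor, rose by 2.26 ± 0.47, with 5.46 and 5.57 in coculture, against 2.86 to 3.71 in quiescent cells.

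Cell cycle genes rose as a group. Of 45 genes of mitosis and cytokinesis on the array, 31 averaged at least 5 in coculture and 4 did so in quiescent cells. The 19 that passed the filter were all called higher, but all except 5 (Mad2l1, Incenp, Cdc20, Pttg1 and Kif22) passed through arrays other than the quiescent ones, so the count follows in part from the filter. Medians over the 45 genes were 4.60 and 6.73 in coculture, 3.20, 3.16 and 3.38 in culture and 2.03, 1.95, 2.25, 2.02 and 2.30 in quiescent cells. The median of coculture replicate 3 was higher than that of replicate 2, and both were above every culture and quiescent array. Cdk1, the kinase that drives entry into mitosis, read 7.91 and 8.79 in coculture, 6.39, 6.19 and 6.06 in culture and 3.30, 2.16, 3.12, 2.19 and 2.91 in quiescent cells, a difference of 5.61 ± 0.36 from quiescent cells (adjusted p = 7.3e-08) and of 2.13 ± 0.40 from culture (adjusted p = 0.00232). Bub1, a kinase of the spindle checkpoint, read 6.03 and 7.83 in coculture, against 1.34, 0.94, 1.59, 0.83 and 1.87 in quiescent cells and rose by 5.62 ± 0.49. Birc5, survivin, and Ube2c, the ubiquitin-conjugating enzyme of the anaphase-promoting complex, rose by 5.52 ± 0.38 and by 5.38 ± 0.52. Nuf2, a kinetochore protein, read 5.37 and 7.49 in coculture, against 1.22 to 1.71 in quiescent cells. Against culture, 19 of the 19 tested genes were higher in coculture, against 8.37% of all tested genes, a count that the same filter affects.

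Genes of DNA replication rose in 20 of 27 tested (74.1%) and fell in 0, and in 9 without coculture replicate 3. Among the 21 that passed on quiescent arrays alone, 14 rose, against 14.9% of all genes so selected. Rrm2, the regulated subunit of ribonucleotide reductase, read 9.45 and 10.25 in coculture, against 4.18, 4.32, 5.39, 5.81 and 4.35 in quiescent cells, a difference of 5.04 ± 0.44 (adjusted p = 1.57e-06). Cdc6, which loads the replicative helicase, read 6.18 and 7.12 in coculture, against 2.68, 2.0, 2.60, 1.86 and 2.49 in quiescent cells and rose by 4.32 ± 0.32. Ccne2, cyclin E2, Rrm1, the large reductase subunit, and Gins2, a helicase component, rose by 4.0 ± 0.56, 2.91 ± 0.44 and 2.79 ± 0.30. Against culture 25 of the 27 were higher, against 8.37% of all tested genes, a count that the filter affects in part. Mcm5, a subunit of the helicase, was among them (9.18 and 9.85 in coculture, 6.94, 6.71 and 7.02 in culture and 7.44, 6.94, 7.96, 6.93 and 7.89 in quiescent cells). Culture values of Mcm5 lay within or near the quiescent range, and coculture was 2.63 ± 0.33 above culture (adjusted p = 0.000138).

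**Figure D3:**
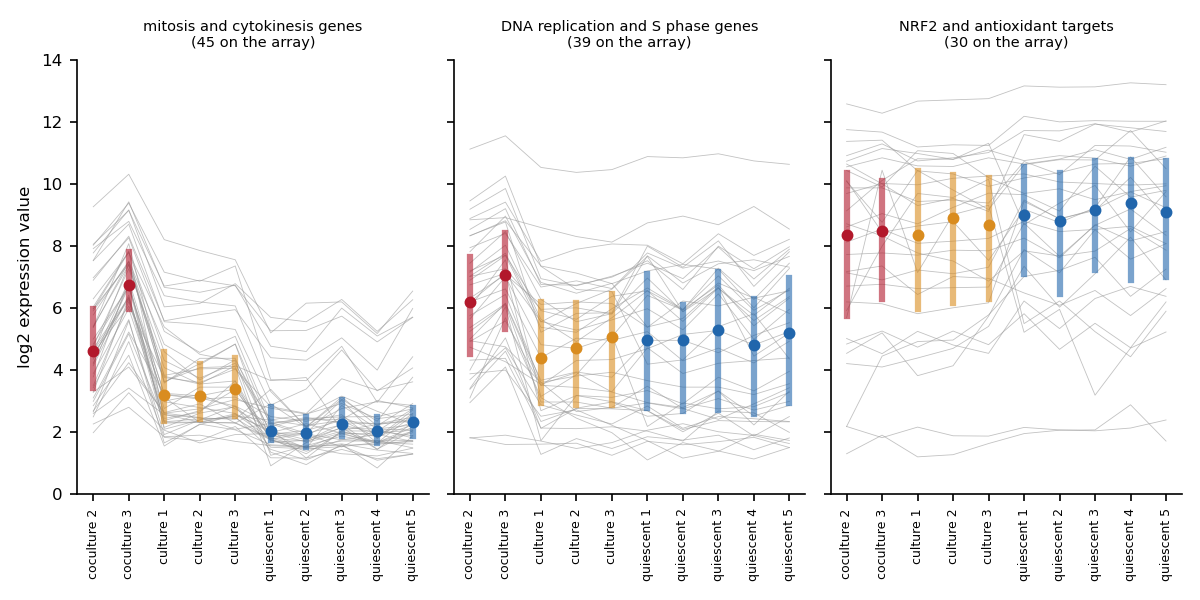
Log2 expression values of every gene on the array in the mitosis list (45), the replication list (39) and the NRF2 list (30) on each coculture, culture and quiescent array, as grey lines, with dots at the array medians and bars over the middle quartiles. Mitosis medians are 4.60 and 6.73 in coculture and 1.95 to 2.30 in quiescent cells, while NRF2 medians lie between 8.36 and 9.38 on all arrays shown.

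The promoters of Cdk1 and Cdc20, the activator of the anaphase-promoting complex, are shown as examples of the mitotic genes, with capitals on TTTGAA, the cell cycle genes homology region bound by DREAM and MuvB complexes, and on CCAAT, the NF-Y motif, or its reverse complement ATTGG. The sequences are the 250 bases before the annotated start, 5′ to 3′ in the direction of transcription (RefSeq, GRCm38.p6).
Cdk1, chr10:69352913-69353162, minus strand: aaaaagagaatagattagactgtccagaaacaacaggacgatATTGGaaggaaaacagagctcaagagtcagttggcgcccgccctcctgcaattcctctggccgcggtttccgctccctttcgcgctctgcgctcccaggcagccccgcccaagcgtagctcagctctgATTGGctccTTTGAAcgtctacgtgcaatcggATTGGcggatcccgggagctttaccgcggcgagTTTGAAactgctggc
Cdc20, chr4:118437344-118437593, minus strand: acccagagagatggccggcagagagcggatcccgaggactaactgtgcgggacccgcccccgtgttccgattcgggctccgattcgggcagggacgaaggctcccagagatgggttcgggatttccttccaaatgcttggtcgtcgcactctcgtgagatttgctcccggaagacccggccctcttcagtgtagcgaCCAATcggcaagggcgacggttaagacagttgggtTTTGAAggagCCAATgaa
Cdk1 held TTTGAA 71 to 66 and 15 to 10 bases before the start and CCAAT on the other strand at 208 to 204, 80 to 76 and 48 to 44. Cdc20 held TTTGAA at 18 to 13 and CCAAT at 53 to 49 and 8 to 4. In windows of 300 bases searched on both strands, TTTGAA occurred in 10 of 16 mitosis promoters (62.5%) and in 13.5% of all 6416 promoters of tested genes, and CCAAT in 62.5% of the mitosis promoters and 42.2% of all. The replication promoters held TTTGAA in 8.33% and CCAAT in 62.5% of 24. The expression of Cdc20 read 7.53 and 9.42 in coculture, against 4.76, 4.59, 5.99, 5.09 and 5.70 in quiescent cells, a difference of 3.25 ± 0.42 (adjusted p = 3.89e-05).

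Brakes of the cell cycle did not move together. Their list stood at 21.7% higher and 13.0% lower, against 17.8% and 20.9% of all tested genes. Of 23 tested CDK inhibitors, D cyclins and p53 targets 5 rose and 3 fell, with 1 lower without either coculture array. Cdkn1a, the inhibitor p21, overlapped between groups, with 10.67 and 10.0 in coculture, against 9.65, 10.76, 10.63, 11.94 and 10.62 in quiescent cells, and was not called (-0.39 ± 0.51, adjusted p = 0.578). Cdkn2d, the inhibitor p19 of CDK4 and CDK6, rose by 2.12 ± 0.41, and Ccnd3, cyclin D3, by 1.13 ± 0.27. Of 20 tested genes of cell death 3 were higher and 2 lower, shares below the background, with 1 higher without coculture replicate 2 and 1 lower without coculture replicate 3. Casp8, the initiator caspase of death receptors, was 1.16 ± 0.24 higher and Diablo, a mitochondrial antagonist of apoptosis inhibitors, fell by 0.93 ± 0.17.

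Many glycolysis and hypoxia genes rose. Of 16 tested genes of glycolysis and sugar and lactate transport 8 rose and 1 fell (5 higher without coculture replicate 3, and 0 lower without quiescent replicate 4 or 5 or either coculture array), and of 17 hypoxia response genes 11 rose and 0 fell. Slc16a3, the lactate exporter MCT4, read 5.38 and 5.77 in coculture, 3.52, 2.82 and 1.91 in culture and 1.86, 1.74, 1.44, 1.82 and 1.33 in quiescent cells, a difference of 3.94 ± 0.40 (adjusted p = 5e-06). Hk2, the inducible hexokinase, read 8.05 and 7.81 in coculture, against 3.97, 5.60, 3.64, 5.73 and 4.16 in quiescent cells and rose by 3.31 ± 0.59 (adjusted p = 0.000534). Tpi1 and Pgk1, enzymes of the lower pathway, were high in all groups and rose by 1.47 ± 0.13 and 1.12 ± 0.16. Tpi1 read 11.01 and 11.25 in coculture, against 9.84, 9.67, 9.65, 9.46 and 9.72 in quiescent cells, with a narrow spread within groups. Bnip3, a mitophagy receptor induced by HIF, read 9.38 and 9.81 in coculture, 8.20, 8.68 and 8.58 in culture and 5.43, 5.94, 5.78, 5.90 and 5.88 in quiescent cells. It rose in steps, with coculture 1.11 ± 0.26 above culture (adjusted p = 0.00942) and 3.81 ± 0.24 above quiescent cells (adjusted p = 4.94e-08). Adm, the vasodilator peptide adrenomedullin, rose by 2.78 ± 0.54 but was not called against culture (-0.19 ± 0.59, 95% interval -1.45 to 1.08). Ero1a, the oxidase that forms disulphide bonds in the endoplasmic reticulum, rose by 2.38 ± 0.25, with 10.11 and 10.97 in coculture, against 7.82 to 8.43 in quiescent cells. Hif1a itself was higher by 0.94 ± 0.15. Against culture 7 glycolysis and 6 hypoxia genes were higher and 0 were lower in each list. Over all tested genes that test called 8.37% higher and 7.03% lower.

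Some detoxification genes fell strongly. Gsta2, an alpha class glutathione transferase, showed the largest decrease of all, with 2.17 and 1.49 in coculture, against 7.92, 7.61, 9.09, 8.89 and 7.95 in quiescent cells, a difference of -6.46 ± 0.38 (adjusted p = 3.22e-08). Gsta4, which conjugates the lipid peroxidation product hydroxynonenal, read 2.90 and 4.41 in coculture, 6.13, 6.13 and 6.94 in culture and 9.37, 8.87, 9.76, 9.80 and 9.25 in quiescent cells. It fell further in coculture than in culture, by 2.75 (adjusted p = 0.0004), and by 5.76 ± 0.37 from quiescent cells. Gsta2 and Gsta3 are close in sequence, so their probes may share signal. Gstp1, the abundant pi class enzyme, fell by 1.50 ± 0.09, with 11.22 and 11.24 in coculture, against 12.60 to 12.80 in quiescent cells. Of 14 tested transferases 5 fell (35.7%, against 20.9% of all tested genes) and 3 rose (21.4%, against 17.8%). The median difference over the tested transferases was 0.34 (-0.04 over all genes).

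Targets of NRF2, the transcription factor of the antioxidant response, fell in 14 of 28 tested (against 20.9% of all tested genes) and rose in 4, with 1 higher without coculture replicate 3. Srxn1, sulfiredoxin, read 6.19 and 6.13 in coculture, 5.81, 6.0 and 6.16 in culture and 9.43, 8.88, 9.14, 10.21 and 8.93 in quiescent cells, a difference of -3.15 ± 0.29 (adjusted p = 1.92e-06). Nqo1, a quinone reductase, read 4.53 and 5.19 in coculture, against 7.88, 7.13, 8.52, 7.57 and 8.07 in quiescent cells. It fell by 2.97 ± 0.46 (adjusted p = 0.000199). Gclc, which makes the first bond of glutathione, and Osgin1 fell by 2.29 ± 0.22 and fell by 2.98 ± 0.46. Aox1, aldehyde oxidase, fell by 3.78 ± 0.52, with 2.17 and 4.44 in coculture, against 6.37 to 7.63 in quiescent cells. Srxn1, Nqo1, Gclc and Osgin1 were not called against culture (differences of 0.17, 0.31, -0.20 and -0.68, adjusted p = 0.762, 0.741, 0.642 and 0.402).

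Stress and immediate early genes were lower in part. Of 33 tested genes of the AP-1, EGR and MAP kinase feedback list 7 fell, 1 rose and 25 were not called, close to the share of lower genes over all. The number lower was 11 without quiescent replicate 1 or 3 and 4 without coculture replicate 3, and the number higher was 2 without quiescent replicate 4 and 0 without either coculture array. Klf2 and Klf4, zinc finger factors linked to quiescence in vascular cells, fell by 2.42 ± 0.21 and fell by 1.72 ± 0.24. Klf2 read 7.25 and 7.46 in coculture, against 9.78, 9.79, 9.41, 9.58 and 10.32 in quiescent cells, and it was also 1.67 below culture (adjusted p = 0.000218). The heat shock gene Hspa1b read 8.24 and 7.36 in coculture, against 11.73, 11.47, 9.34, 11.95 and 11.30 in quiescent cells. It was lower in both cocultures, by 3.36 ± 0.70 (adjusted p = 0.00171), and quiescent replicate 3 was the lowest of the quiescent arrays. Hspa1b and Hspa1a are near-identical, and their probes may share signal. Bag3, a co-chaperone of the same response, fell by 1.64 ± 0.24. The small heat shock genes Hspb6 and Hspb2 rose by 2.10 ± 0.32 and 1.67 ± 0.38. Counts of the heat shock list are to be read against 17.8% higher and 20.9% lower over all tested genes. The median difference over its tested members was -0.03 (-0.04 over all genes). In all, 4 of 21 heat shock genes rose and 6 fell, with 2 lower without coculture replicate 3.

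Genes of the unfolded protein response rose in 9 of 30 and fell in 2, with 3 higher without coculture replicate 2 and 0 lower without coculture replicate 3. Asns, asparagine synthetase, a target of the amino acid response, rose by 1.28 ± 0.31, with 9.94 and 9.97 in coculture, against 8.06 to 9.22 in quiescent cells. Cytosolic ribosomal protein genes fell in 13 of 25 tested (52.0%, against 20.9%) and rose in 0 (8 lower without coculture replicate 3), with a median of -0.30. Rps18 read 11.69 and 11.71 in coculture, against 12.57, 12.21, 12.56, 12.85 and 12.50 in quiescent cells, a fall of 0.84 (adjusted p = 0.000252). Respiratory chain genes showed shares below the background, 3 of 33 higher and 5 lower, with 0 higher without coculture replicate 2 and 3 lower without either coculture array. Ndufv1, a subunit of complex I, fell by 0.86 ± 0.14.

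Lysosomal genes rose in 17 of 32 tested (53.1%, against 17.8% of all tested genes) and fell in 2, with 11 higher and 0 lower without coculture replicate 3 and 1 lower without coculture replicate 2. Gla, alpha-galactosidase A, read 10.40 and 10.24 in coculture, against 8.21, 8.35, 7.72, 7.83 and 8.19 in quiescent cells, a difference of 2.26 ± 0.36 (adjusted p = 0.000236). Ctsc, a peptidase that activates granule proteases in leukocytes, read 11.79 and 11.36 in coculture, against 9.92, 10.05, 9.07, 9.25 and 9.67 in quiescent cells and rose by 1.98 ± 0.25 (adjusted p = 3.92e-05). Man2b1, lysosomal mannosidase, and Ctsz, a cathepsin, rose by 1.45 ± 0.26 and 1.13 ± 0.16. Against culture 4 members were higher and 2 lower. Macrophages are rich in lysosomal enzymes. Their 25 markers averaged 2.10 and 2.19 in coculture and 1.71 to 1.93 in quiescent cells, with Lyz1 and Lyz2 called higher in coculture, Cd68 not called against quiescent cells but 4.08 above culture, and Adgre1, Clec4f, Vsig4 and Ptprc at background in both groups, and their part in the lysosomal result was not tested.

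Lipid genes held changes in both directions, in shares near or below those over all tested genes (17.8% higher, 20.9% lower). Fabp4, a fatty acid carrier of adipocytes and macrophages, read 7.63 and 7.89 in coculture, 2.37, 3.84 and 1.83 in culture and 3.32, 3.60, 2.47, 4.78 and 2.81 in quiescent cells. Among these groups coculture alone was high, by 4.36 ± 0.60 over quiescent cells (adjusted p = 7.11e-05) and 5.08 ± 0.66 over culture (adjusted p = 0.000148). Fabp5 rose by 2.02 ± 0.28, with 11.30 and 12.03 in coculture, against 9.27 to 10.14 in quiescent cells, and Lpl, lipoprotein lipase, by 2.07 ± 0.33. Mgll, which cleaves monoglycerides, fell by 1.98 ± 0.39. Of 17 tested droplet and triglyceride genes 3 rose and 3 fell (2 lower without coculture replicate 2). Fasn and Acaca, enzymes of fatty acid synthesis, fell by 1.49 ± 0.30 and by 1.25 ± 0.21. Scd1, of the same list, rose by 2.61 ± 0.54, with 5.76 and 7.24 in coculture, against 3.54 to 4.32 in quiescent cells. Fasn read 6.30 and 6.82 in coculture, against 8.11, 7.76, 8.25, 8.65 and 7.50 in quiescent cells. In the whole list of cholesterol and fatty acid synthesis 3 of 25 were higher and 5 lower, with 6 higher without quiescent replicate 3, 2 lower without coculture replicate 2 and 1 higher without coculture replicate 3.

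Developmental signalling genes were more often lower than higher. Of 17 tested Wnt, Notch and Hedgehog genes 9 fell (52.9%, against 20.9% of all tested genes) and 1 rose, with 4 lower without coculture replicate 2 and 5 lower without coculture replicate 3. Notch1, the receptor, read 5.88 and 5.0 in coculture, against 7.93, 7.97, 7.77, 8.38 and 7.65 in quiescent cells. It fell by 2.50 ± 0.33 (adjusted p = 4.52e-05). Hhip, a decoy receptor for Hedgehog ligands, fell by 2.93 ± 0.48, with 1.88 and 2.67 in coculture, against 4.25 to 6.08 in quiescent cells. Dkk3, of the Dickkopf family, rose by 2.68 ± 0.57, with 7.70 and 8.16 in coculture, against 3.32 to 6.29 in quiescent cells. Axon guidance genes fell in 10 of 21 and rose in 2 (0 higher without quiescent replicate 1 or 5, culture replicate 2 or either coculture array, 1 without quiescent replicate 2 or 3). Robo2, a receptor for Slit ligands, read 1.77 and 2.18 in coculture, against 8.26, 8.24, 6.46, 7.84 and 6.54 in quiescent cells and fell by 5.50 ± 0.72 (adjusted p = 4.84e-05). Ntn1, the guidance cue netrin 1, was high in quiescent cells, with 8.48 and 8.76 in coculture, 10.60, 10.41 and 10.98 in culture and 10.72, 10.65, 10.55, 10.43 and 10.58 in quiescent cells. Culture values lay at or near the quiescent range, and coculture lay 2.04 below culture (adjusted p = 0.000138). Ntm, neurotrimin, fell by 4.72 ± 0.41. Of 21 targets of YAP and TAZ 4 fell and 1 rose, with 2 lower without coculture replicate 2 and a number higher between 0 and 2 as single arrays were left out. Asap1 fell by 1.50 ± 0.19.

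**Figure D4:**
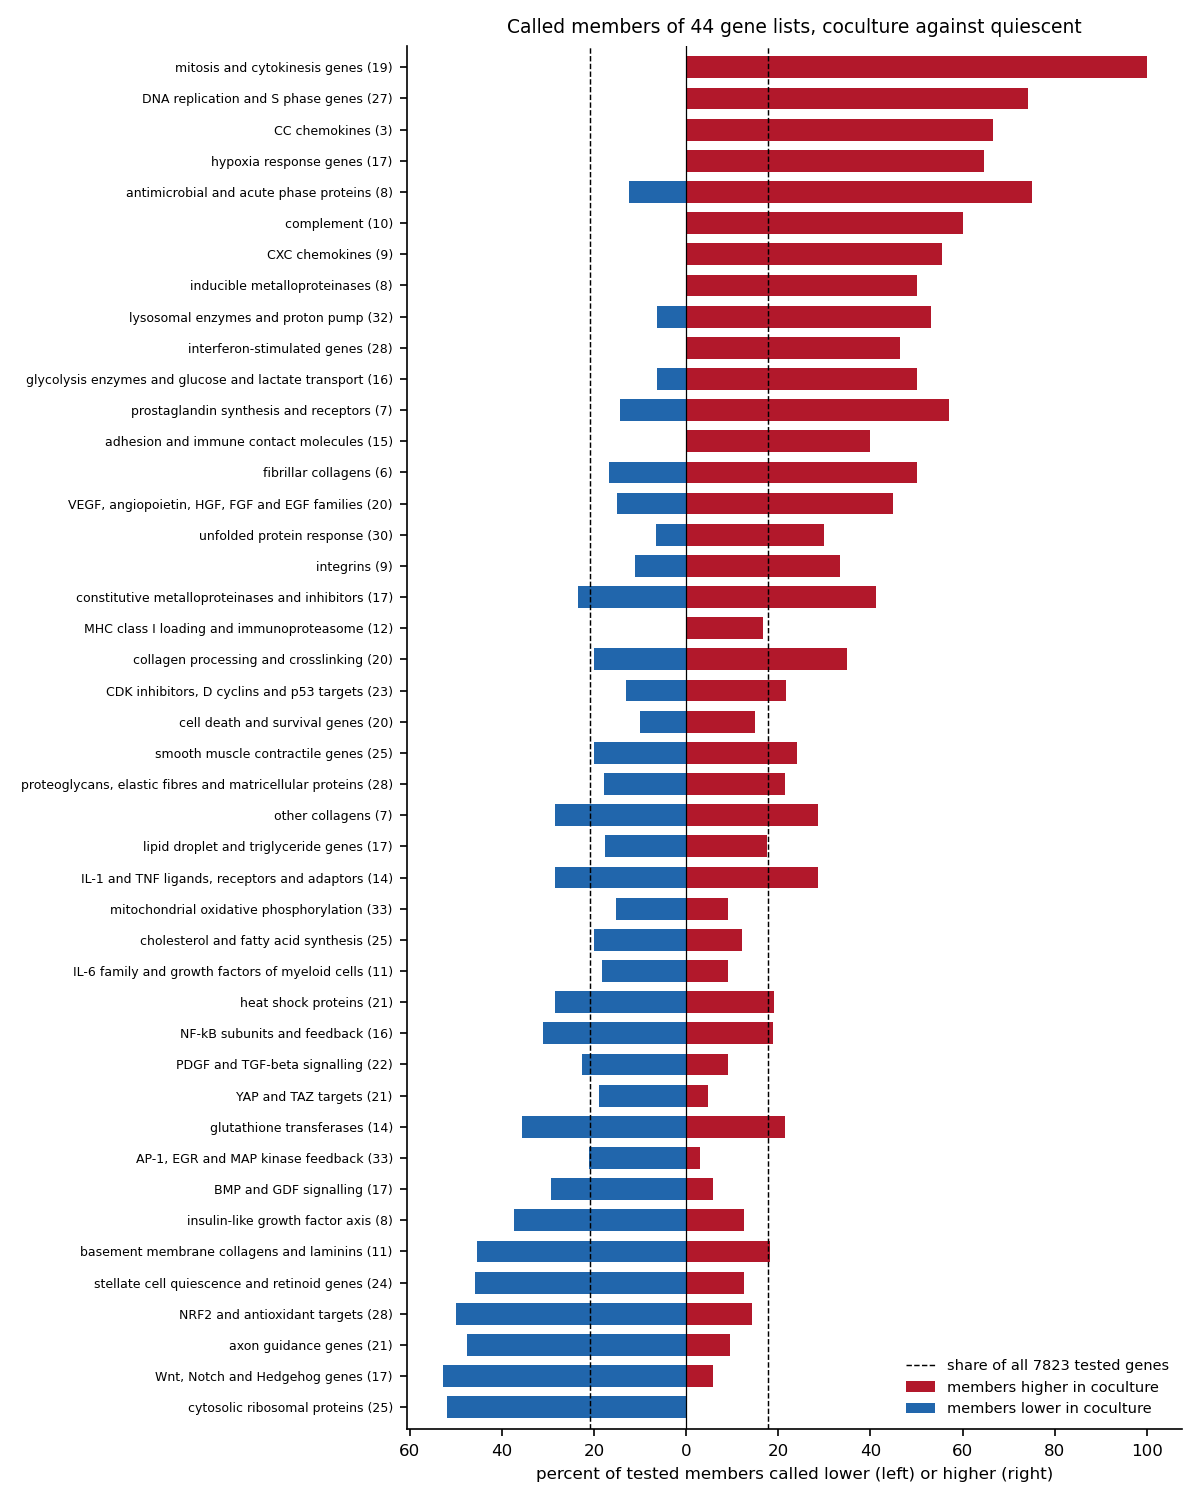
Share of the tested members of each of 44 gene lists that was called higher (right, red) or lower (left, blue) in coculture against quiescent cells, with the number of tested members in brackets and dashed lines at the shares over all 7823 tested genes (17.8% higher, 20.9% lower). Lists run down the page by the share higher minus the share lower, with mitosis (19 of 19 higher) and replication (20 of 27) at the top and Wnt (9 of 17 lower) and ribosomal protein genes (13 of 25) at the bottom. The filter fixes part of the shares, since 5 of the 19 mitosis and 21 of the 27 replication genes passed it on quiescent arrays.

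Further genes among the 20 largest increases belonged to no list. Crct1, a gene of the epidermal differentiation complex, read 11.41 and 9.08 in coculture, 4.30, 4.95 and 2.71 in culture and 2.26, 2.85, 2.86, 3.34 and 2.44 in quiescent cells. It rose by 7.49 ± 0.69 over quiescent cells (adjusted p = 1.96e-06) and 6.26 ± 0.76 over culture (adjusted p = 9.3e-05). Slco4a1, an organic anion transporter that carries thyroid hormone, read 12.02 and 10.92 in coculture, against 3.57, 6.0, 4.27, 7.49 and 3.64 in quiescent cells and rose by 6.47 ± 1.02 (adjusted p = 0.000221). Ctla2a and Ctla2b, near-identical inhibitors of cathepsin L whose probes may share signal, rose by 5.81 ± 0.66 and 6.04 ± 0.61. Prl8a9, a prolactin-like hormone known from the placenta, read 7.59 and 6.82 in coculture, 1.38, 1.46 and 1.22 in culture and 1.24, 1.44, 1.04, 1.28 and 1.13 in quiescent cells. It was at background on all culture and quiescent arrays, so the difference of 5.98 from quiescent cells describes the processed values. Fam110c rose by 5.91 ± 0.60, with 9.16 and 7.33 in coculture, against 2.21 to 2.41 in quiescent cells. Plscr2, a phospholipid scramblase, rose by 6.25 ± 0.31 but was not called against culture (0.68 ± 0.34, 95% interval -0.04 to 1.41).

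Several large decreases also fell outside the lists. Mest, an imprinted gene of mesenchymal cells, read 2.58 and 3.20 in coculture, 7.55, 7.89 and 9.95 in culture and 6.93, 6.14, 7.42, 7.19 and 5.95 in quiescent cells. Coculture was lowest, 3.84 below quiescent cells and 5.57 below culture (adjusted p = 0.000112 and 4.12e-05). Mamdc2 was likewise lowest in coculture, with 3.81 and 5.28 in coculture, 8.64, 9.08 and 10.56 in culture and 7.73, 8.14, 8.21, 6.52 and 8.26 in quiescent cells. Mapt, the microtubule-binding protein tau, fell by 3.94 ± 0.40, with 3.13 and 2.79 in coculture, against 6.44 to 7.55 in quiescent cells. Cad, the enzyme that starts pyrimidine synthesis, fell by 3.57 ± 0.30, with 4.57 and 3.50 in coculture, against 7.20 to 7.99 in quiescent cells, and was not called against culture (0.09, 95% interval -0.60 to 0.78). Abca8a, a lipid transporter, fell by 3.55 ± 0.65, with 1.75 and 2.09 in coculture, against 4.02 to 6.62 in quiescent cells.

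The coculture arrays differed from each other in a limited set of genes. The median absolute gap between replicates 2 and 3 was 0.3 over all tested genes, against 0.21 to 0.38 for pairs of quiescent arrays. It was at least 1 in 294 of the 3031 called genes, with replicate 2 higher in 101 and replicate 3 higher in 193. The 10 called genes with the largest gap included Sparcl1, a matrix protein, at 1.78 and 8.47 in coculture, against 7.73 to 9.38 in quiescent cells. Replicate 3 was thus within the quiescent range and replicate 2 at background, and the call (-3.47) was lost without replicate 2 (-0.12). Cxcl5 and Cxcl10, chemokines for neutrophils and T cells, were higher in replicate 2, with 8.98 and 5.48 and 9.52 and 5.69 in coculture against 1.97 to 3.98 and 3.81 to 4.93 in quiescent cells. Without replicate 2 Cxcl5 was 2.64 and still called, and Cxcl10 was 1.19 and not called. Grem1, a secreted BMP antagonist, read 9.44 and 5.63 in coculture, against 1.67 to 2.24 in quiescent cells and was called, at 5.56 with both arrays and 3.66 without replicate 2. Sprr1a, a cornified envelope protein, had values of 8.38 and 3.24 and was not called without replicate 2 (1.47). Gpx3, Ncam1 and Spon1 were higher in replicate 3, with 5.68 and 10.44, 3.05 and 7.64 and 2.95 and 6.84, and none of these was called without it (0.82, 1.26 and 0.12). Spon1, Gpx3 and Sparcl1 were also not called under other settings, given with the processing. Gdf10 and Tgfbi, secreted proteins linked to BMP and TGF-beta signalling, were lower in replicate 2, with 2.76 and 7.43 and 3.11 and 7.05 against 8.66 to 10.67 and 8.55 to 10.06 in quiescent cells, and both remained called without it (-2.56 and -2.41).

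**Figure D5:**
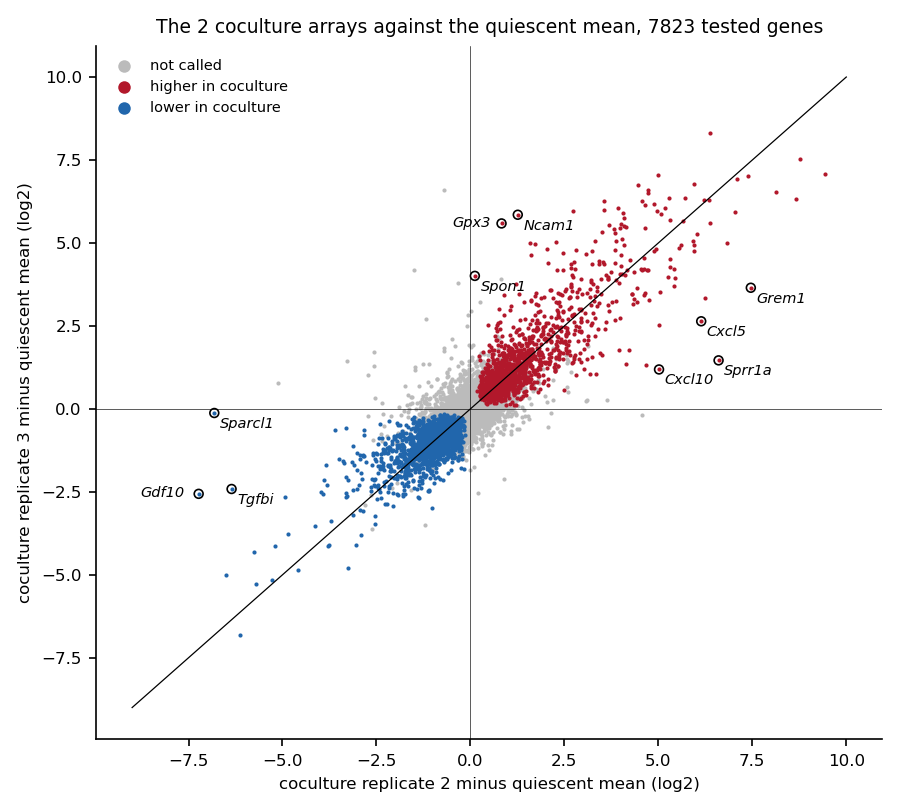
Difference of coculture replicate 2 (horizontal axis) and coculture replicate 3 (vertical axis) from the quiescent mean for each of the 7823 tested genes (log2), with the diagonal marking equal values and circles around the 10 called genes with the largest gap. Most called genes lie near the diagonal, and Sparcl1, Spon1 and Gpx3 sit close to an axis, where 1 array carries the difference.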

How the data were processed

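RNA of each preparation was column-purified, amplified, biotin-labelled and hybridised to a mouse oligonucleotide array, per the labels' protocols. The deposited values are log2 expression values of 45101 probe sets on 16 arrays, made by the authors with GCRMA, per the submitters' processing notes. No version or setting of it is given in the sources used here. Of the probe sets 34945 carried 1 gene symbol, 932 several and 9160 none in the platform annotation, and 64 were controls. For each of 18193 genes the probe set of highest average value on all 16 arrays was taken. Genes at log2 5 or more on at least 2 arrays were fitted with limma 3.58.1 (R 4.3.3), with 5 group means and a moderated test with an intensity trend, and p-values were adjusted by the Benjamini-Hochberg method over 7823 genes. Precision is limited by how many arrays each group holds. The script was tested on simulated data.

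Members and gene lists were chosen with earlier results of these data known. Genes named were, among called genes with arrays that did not overlap and leaving out unnamed clones, the 20 largest increases, the 20 largest decreases and up to 5 per list, then 20 fixed genes and the 10 called genes with the largest gap between the cocultures, of which a part is given. Adgre1, Cd68, Cdc20, Clec4f, Cp, Cxcl1, Gata4, Hif1a, Icam1, Il1b, Incenp, Kif22, Krt8, Krt18, Krt19, Lyz1, Lyz2, Mad2l1, Mcm5, Mmp8, Mmp9, Ptgs2, Pth1r, Ptprc, Pttg1, S100a9, Steap4, Tnf, Vcam1, Vim and Vsig4 were chosen after their values were seen. Alternatives covered the filter, probe set choice, scaling, prior, array weights and single arrays left out.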

Additional observations from a re-analysis of the deposited data

Results flagged for a closer look

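In 10 of 183 named genes tested, 1 quiescent array lay apart from the other 4 by more than Dixon's critical value of 0.71, and chance flags about 1 in 20 groups. In 7 of the 10 this was quiescent replicate 4. It was higher than the other quiescent arrays in Mmp13 (8.16, others 3.61 to 4.38), Ptgs2 (7.67, others 1.58 to 2.71), Vegfa (6.12, others 3.23 to 4.00), Cd40 (4.52, others 3.44 to 3.71) and Pgk1 (10.85, others 10.34 to 10.49). It was lower in Casp8 (6.22, others 6.70 to 6.75) and Reln (11.52, others 12.07 to 12.26). Mmp13, Ptgs2, Vegfa, Cd40, Pgk1 and Casp8 are genes that rose in coculture, and Reln is one that fell. Quiescent replicate 3 was lower in Hspa1b (9.34, others 11.30 to 11.95) and Bag3 (7.28, others 8.16 to 8.46), and quiescent replicate 2 was lower in Mgll (8.14, others 8.64 to 8.80).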

How the results depend on the processing

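Against quiescent cells, 3432 genes were called of 18193 without a filter (1822 higher and 1610 lower, 53.1% higher, so that the majority of lower calls is turned), 2168 of 5420 with the filter at log2 7, 2285 of 5783 with probe sets averaged (39 of the 2284 reported calls that could be compared had the opposite sign), 2268 with only the 2 groups, 2684 with array weights, 3026 with centred arrays, 3083 after quantile normalisation, 3019 without the trend, 3025 with the robust prior and 2966 without quiescent replicate 4, culture replicate 3 and carbon tetrachloride replicate 3 (doubted in earlier results of these data). With the filter at log2 7, 902 calls were at least 2-fold, against 1470. With only the groups of each comparison, 601 genes were called against culture, against 1205. The share of higher calls was 44% to 46.5% under the scaling alternatives and 46.1% as reported. Coculture and quiescent arrays share replicate numbers 2 and 3, which the labels do not tie to a shared preparation. Deviations from the group means correlated at -0.05 and 0.21, and the fit with this replicate block called 2532 genes.

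With single arrays left out, 1816 to 3123 genes were called, 844 to 1436 higher, 972 to 1687 lower, 1265 to 1543 at least 2-fold and 412 to 1399 against culture. The low ends came from leaving out a coculture array, which leaves 1 array in the group. Differences that were not called and changed sign were Cdkn1a (0.18) and Krt8 (-0.05) with probe sets averaged, Krt8 (-0.53) and Krt18 (-0.73) after quantile normalisation, and, with single arrays left out, Icam1 (-0.10 to 0.23) and Nfkbia (-0.08 to 0.23). Spon1 was not called with only the 2 groups (2.06), array weights (1.89), quantile normalisation (1.49) or the replicate block (1.72). With only the 2 groups, the calls of Col1a1 (1.52), Igfbp3 (-1.26), Gpx3 (3.21) and Sparcl1 (-3.47) were lost as well. Gpx3 was also not called with the replicate block (3.09), and Sparcl1 not without quiescent replicate 1 (-3.27) or 2 (-3.32). The cause was not tested.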
